A study of Mus musculus with 5 samples.

Results

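The SMAD transcription factors and the Smurf ubiquitin ligases were followed across 5 lines of the mouse neuroblastoma cell line Neuro2A, each hybridised once to an Affymetrix 3' expression array. Members were Smad1, Smad2, Smad3, Smad4, Smad5, Smad6, Smad7, Smad9, Smurf1 and Smurf2, and every probe set annotated with exactly 1 of these symbols was taken. This gave 23 probe sets for 10 genes, out of 45037 probe sets that were not array controls and 18193 genes. The study's design text gives the effect of KDM7, a histone demethylase encoded by Kdm7a, on gene expression as its question. The knockdown arm held 2 stable lines, KDM7 KD1 and KDM7 KD2, each made with its own vector against KDM7. The control arm held 3 lines, namely the parental cells, cells with an empty vector and cells with a vector against EGFP (EGFP KD), a protein that is not a mouse gene product. All 5 lines share the Neuro2A background, and 4 of them carry a vector. The labels do not state whether a stable line is 1 clone or a mixed population, or whether lines were cultured separately. The p-values below therefore measure the spread between these arrays only. With 1 array per line, differences between lines and technical differences cannot be told apart in that spread.

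The family was proposed with results of knockdown against control in view, in which Smad6 had been low and the parental line had been known to be its highest. Values of that contrast are given as a description, with no p-value for a member. KDM7 KD2 was tested against KDM7 KD1, and the parental line against the other control lines, but in the parental contrast Smad6 is described only.

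SMADs carry signals of the transforming growth factor beta (TGF-beta) family from the cell surface to the nucleus. Ligands bring together type I and type II receptor kinases, which phosphorylate the receptor SMADs. Smad1, Smad5 and Smad9 serve the bone morphogenetic protein (BMP) branch, and Smad2 and Smad3 the TGF-beta and activin branch. Phosphorylated receptor SMADs bind the common SMAD, Smad4, and act on target genes. Smad6 and Smad7 are inhibitory SMADs that are themselves induced by the pathway and dampen it, and Smurf1 and Smurf2 attach ubiquitin to SMADs and, with inhibitory SMADs, to receptors. BMP signals also help to set the sympathoadrenal fate of neural crest cells, the lineage from which neuroblastoma arises.

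The promoters of Smad6 and Smad3 are shown because the brightest probe set of each had lower signals in both knockdown lines than in any control line, a choice made after these values were seen. Each window runs from 250 bases before to 50 bases after the annotated start, in RefSeq on build GRCm38.p6. Windows of 7 of the 10 members were searched. Smad2, Smad4 and Smad7 were not searched, because the search left out the chromosome on which these genes lie. The brightest probe set of Smad2 was also below every control line. Capitals mark a match to any of 3 motifs searched on both strands: GGCGCC, a GC-rich element bound by BMP-branch SMADs, CAGAC, a core SMAD-binding element, and GTCTAGAC, a palindromic SMAD-binding element. No motif overlapped another in these windows.
Smad6, chr9:64022010-64022309, minus strand: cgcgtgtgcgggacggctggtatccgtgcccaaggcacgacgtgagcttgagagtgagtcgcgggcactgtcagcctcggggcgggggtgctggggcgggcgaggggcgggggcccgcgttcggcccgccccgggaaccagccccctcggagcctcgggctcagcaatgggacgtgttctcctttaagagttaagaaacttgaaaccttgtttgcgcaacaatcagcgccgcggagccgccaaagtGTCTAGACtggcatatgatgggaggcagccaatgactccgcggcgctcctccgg
Smad3, chr9:63757945-63758244, minus strand: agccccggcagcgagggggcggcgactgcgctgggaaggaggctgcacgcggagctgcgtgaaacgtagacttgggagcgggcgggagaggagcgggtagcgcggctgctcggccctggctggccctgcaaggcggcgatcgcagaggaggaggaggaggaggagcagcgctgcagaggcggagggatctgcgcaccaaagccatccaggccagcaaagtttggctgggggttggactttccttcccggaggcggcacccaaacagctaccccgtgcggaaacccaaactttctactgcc
The Smad6 window held the palindrome once, starting 4 bases before the annotated start, and neither of the other motifs. The Smad3 window held none of them. The palindrome was found in 0.213% of 32851 promoter windows of this length, CAGAC in 49.6% and GGCGCC in 11.9%. Among the other 5 members searched, none held the palindrome, and Smad1 held no motif. Smad7, the other inhibitory SMAD, was not searched, so the palindrome cannot be called particular to Smad6 within the family. Of 3 Smad5 windows, 2 that overlap held GGCGCC once and the third held CAGAC once. Smurf2 held GGCGCC 2 times and CAGAC 2 times, Smurf1 held CAGAC 2 times and Smad9 held GGCGCC once. Among the targets Id1, Id2 and Id3, no window was found for Id1, Id2 held GGCGCC once and Id3 held CAGAC 2 times. Smad6 had 66.3% G and C in its window and Smad3 67.7%, against a median of 52.7% over all windows. These are matches of letters in the annotation and not measurements of binding.

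The deposited values are MAS5 signals on a linear scale. A probe set was tested if its mean log2 signal over the 5 arrays reached the median of all probe sets, a signal of 40.5, which kept 22519. Of the 23 member probe sets 20 passed, at least 1 for each gene. The 3 that did not were Smad3 1450472_s_at (10.2 to 48.3 over the 5 lines), Smad3 1450471_at (4.46 to 7.58) and Smurf1 1428396_at (3.49 to 43.2), and they are not interpreted. Kdm7a, the targeted gene, was at 231 and 143 in KDM7 KD1 and KDM7 KD2 by its brightest probe set, 1435867_at. The control lines had 660 (parental), 648 (empty vector) and 872 (EGFP KD). By 1456150_at it had 130 and 136, against 487, 611 and 665 in the same control order. The kept probe set 1427359_at also lay below every control line, so the kept values of Kdm7a went with the labels. Of its probe sets not kept, 1459820_at lay below every control line and 1459821_x_at overlapped the controls. Of 15 annotated sympathoadrenal and neuroblastoma markers 14 were kept, including Phox2a, Hand2, Dbh and Mycn, and Th was not. The summed signal of the 15 was 61859 to 67017 in the knockdown lines and 60896 to 68120 in the control lines. Of the 14 kept, 6 had both knockdown lines below every control line and 1 above, where 10.2% and 12.7% of all kept genes did. Markers of other cells were mostly dim. Of 8 fibroblast markers 2 were kept, and the 8 together had a summed signal of 161 to 268 in the knockdown lines and 178 to 247 in the control lines. Of 4 Schwann and glial markers 1 was kept, and the 4 summed to 333 to 491 in the knockdown lines and 165 to 403 in the control lines. Of 6 blood markers 1 was kept, and the 6 summed to 204 to 250 in the knockdown lines and 155 to 237 in the control lines. Of 4 epithelial markers 2 were kept, and the 4 summed to 191 to 369 in the knockdown lines and 120 to 287 in the control lines. The markers of other cells that were kept were Col1a2, Pdgfra, Erbb3, Csf1r, Epcam and Krt8. Sox10, Ptprc, Col1a1 and Cdh1 were among those not kept. The part of these markers in the values below was not tested. Precision is limited throughout by the small number of arrays, 2 in the knockdown arm and 3 in the control arm.

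Among the kept probe sets of the members, that of the inhibitory SMAD Smad6 had the widest range over the 5 lines, 1.65 on the log2 scale, and Smad6 was 2.10-fold lower in the knockdown arm than in the control arm by mean log2 signals. Smad3 was the next lowest, at 1.34-fold lower. The BMP-branch receptor SMADs and Smad4 differed by at most 0.41 on the log2 scale, and the Smurfs by at most 0.21. Of the 20 kept member probe sets, 3 had both knockdown lines below every control line, where this held for 10.2% of all kept probe sets, and 3 had both above every control line, where that held for 12.6%. The 3 below were Smad6 1422771_at, Smad3 1454960_at and Smad2 1420634_a_at, and the 3 above were Smad5 1451873_a_at, Smad2 1442062_at and Smad4 1422486_a_at. The median log2 difference, knockdown minus control, was 0.05 over the 20 and 0.03 over all kept probe sets. Over all 22519 kept probe sets, 0% passed an adjusted p of 0.05 in limma in this contrast, while 1252 (5.56%) had an unadjusted p under 0.05 and the trend and robust options of eBayes called 2. The 3 and 3 depend on the control lines used. Without the empty vector line they were 6 below and 8 above, with 17.6% and 21.7% of all kept probe sets, and without the EGFP KD line 5 and 3, with 16.6% and 23.5%. After quantile normalization they were 5 below and 3 above, with 11.3% of all kept probe sets on each side. After median centring they were 5 and 1, with 17.7% and 6.02%. Median centring lowers every difference of this contrast by the same amount and took the median of all kept probe sets to -0.08.

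**Figure D1:**
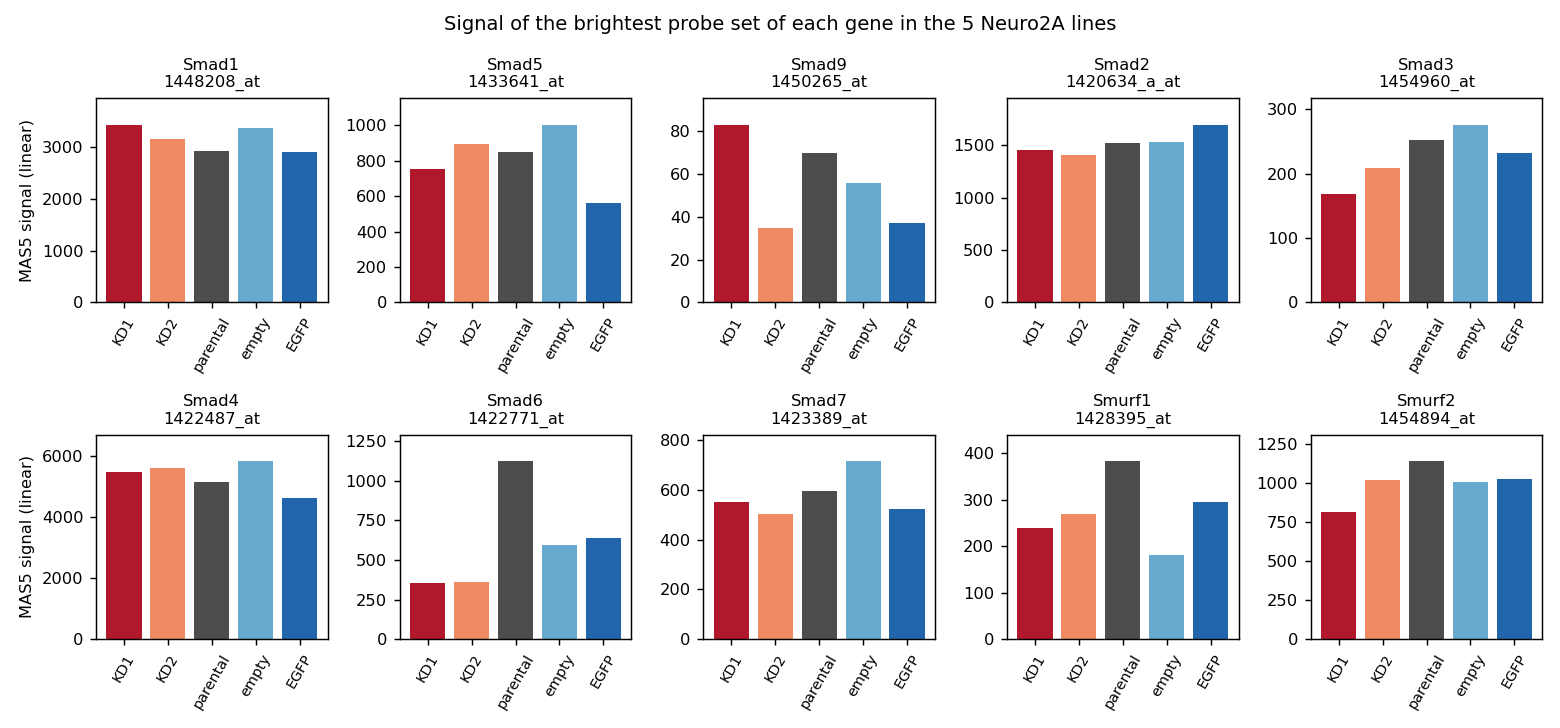
MAS5 signal (linear axis from 0) of the brightest kept probe set of each of the 10 genes, 1 bar per line, with KDM7 KD1 and KDM7 KD2 at the left and the parental, empty vector and EGFP KD lines at the right. Smad6 stands at 357 and 362 in the knockdown lines and 594 to 1123 in the control lines, while bars of Smad1, Smad2 and Smad4 differ little, and heights of different genes cannot be compared.

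Among inhibitory SMADs, Smad6 1422771_at, its 1 probe set, had a signal of 357 in KDM7 KD1 and 362 in KDM7 KD2, against 1123 in the parental line, 594 in the empty vector line and 640 in the EGFP KD line. The knockdown lines were nearly equal and lay below all controls, and the parental line stood far above the rest. The means were 359 ± 3.15 (SD, n = 2) in the knockdown arm and 786 ± 293 (SD, n = 3) in the control arm, a log2 difference of -1.07 (SE 0.31). RNA of a whole culture was measured, so fewer cells with the transcript and less of it per cell cannot be told apart. Against the empty vector and EGFP KD lines alone the log2 difference was -0.78, or 1.72-fold lower, a smaller difference of the same direction. Of all kept probe sets 0.724% had a lower log2 difference than Smad6, and 0.866% were at least 2-fold lower. Smad6 had been known to be low in this contrast, so its place is a description only.

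Smad7, which blocks receptor access for receptor SMADs of both branches, had overlapping groups by both of its probe sets. Its brighter probe set 1423389_at had 550 and 505 in KDM7 KD1 and KDM7 KD2, against 597 (parental), 715 (empty vector) and 523 (EGFP KD) in the control lines. EGFP KD lay below KDM7 KD1, and the log2 difference was -0.20 (SE 0.18). The probe set 1443771_x_at, whose suffix marks probes that may bind other transcripts, had 139 and 147 in the knockdown lines, against 212, 171 and 99.6 in the same control order. Both knockdown values lay inside the control range (log2 difference -0.10, SE 0.34). Without the parental line its log2 difference was 0.13. All 3 inhibitory probe sets thus had a negative sign with all control lines, with a median of -0.20, and 1 of them turned without the parental line.

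Of the TGF-beta and activin branch, Smad3 was the lower one by its only kept probe set. Smad3 1454960_at had a signal of 169 in KDM7 KD1 and 209 in KDM7 KD2, against 252 in the parental line, 276 in the empty vector line and 232 in the EGFP KD line. The groups did not overlap, but the gap between KDM7 KD2 and EGFP KD was smaller than the gap between the knockdown lines. The log2 difference was -0.42 (SE 0.17), with -0.58 for KDM7 KD1 and -0.27 for KDM7 KD2, and 6.34% of kept probe sets had a lower one. The Smad3 probe sets under the brightness filter had the opposite sign, 0.96 by 1450472_s_at and 0.30 by 1450471_at. Both overlapped the control lines, so the lower level of Smad3 rests on 1454960_at alone.

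The probe sets of Smad2 pointed in opposite directions. By 1420634_a_at it had 1454 and 1411 in the knockdown lines, against 1518 (parental), 1528 (empty vector) and 1697 (EGFP KD) in the control lines (log2 difference -0.14, SE 0.14). By 1442062_at it had 663 and 760 in the knockdown lines, against 521, 645 and 562 in the control lines (0.31, SE 0.16). In each case the groups did not overlap, so no single direction can be given for Smad2. The sources used here do not specify which part or variant of the transcript each probe set is directed at. The cause of the opposite directions was not tested.

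Receptor SMADs of the BMP branch had small positive differences by the deposited scaling. Smad1 1448208_at had 3434 and 3162 in KDM7 KD1 and KDM7 KD2, against 2927 (parental), 3372 (empty vector) and 2903 (EGFP KD) in the control lines (log2 difference 0.11, SE 0.15). The empty vector line lay between the knockdown lines, and the other Smad1 probe sets gave 0.10 and 0.13. Smad5 1433641_at had 755 and 893 in the knockdown lines, against 852, 1005 and 562 in the control lines (0.07, SE 0.28). The control lines enclosed both knockdown lines, and EGFP KD was the lowest of the 5.

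A second Smad5 probe set, 1451873_a_at, had 359 and 354 in the knockdown lines, against 260, 320 and 230 in the control lines (log2 difference 0.41, SE 0.19), with no overlap. The third, 1421047_at, had 296 and 255 in the knockdown lines, inside the control range of 212 to 297. Smad9 1450265_at was the dimmest kept member, at 83.2 in KDM7 KD1 and 34.6 in KDM7 KD2, against 69.7 (parental), 55.9 (empty vector) and 37.0 (EGFP KD) in the control lines. The knockdown lines were the highest and the lowest of the 5, around the level of the brightness filter (log2 difference 0.03, SE 0.45). All 7 BMP-branch probe sets had a positive sign by the deposited scaling, with a median of 0.10 where that of all kept probe sets was 0.03. After quantile normalization 6 of them were positive, and 2 were after the common shift of median centring. Without EGFP KD, Smad5 1433641_at had -0.17, Smad5 1421047_at -0.07 and Smad9 -0.22. No direction is given for this class.

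Smad4, the partner of every receptor SMAD, had 5481 and 5610 in KDM7 KD1 and KDM7 KD2, against 5155 (parental), 5816 (empty vector) and 4625 (EGFP KD) in the control lines by its brightest probe set 1422487_at. The empty vector line lay above both knockdown lines, and the log2 difference was 0.10 (SE 0.16). Its other probe sets had 0.18 and 0.16, and EGFP KD was the lowest line for all 3. The sign of 1 of the 3 turned after median centring. By 1422486_a_at the knockdown lines, at 2363 and 2437, lay above the highest control, at 2328, by a margin smaller than the range of the controls, which began at 1836.

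Both Smurfs are HECT-type ubiquitin ligases. Smurf1 1428395_at had 240 and 269 in KDM7 KD1 and KDM7 KD2, against 383 (parental), 181 (empty vector) and 295 (EGFP KD) in the control lines. The knockdown lines lay inside a wide control range (log2 difference -0.10, SE 0.33), and the sign turned to 0.14 without the parental line. Smurf2 1454894_at had 818 and 1020 in the knockdown lines, against 1141, 1010 and 1025 in the control lines (-0.21, SE 0.17). KDM7 KD1 was the low line there, and KDM7 KD2 was among the controls. The other Smurf2 probe sets had -0.19 (SE 0.16) and -0.13 (SE 0.14). All 4 Smurf probe sets had a negative sign with all control lines, and each overlapped the control lines by the deposited scaling.

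**Figure D2:**
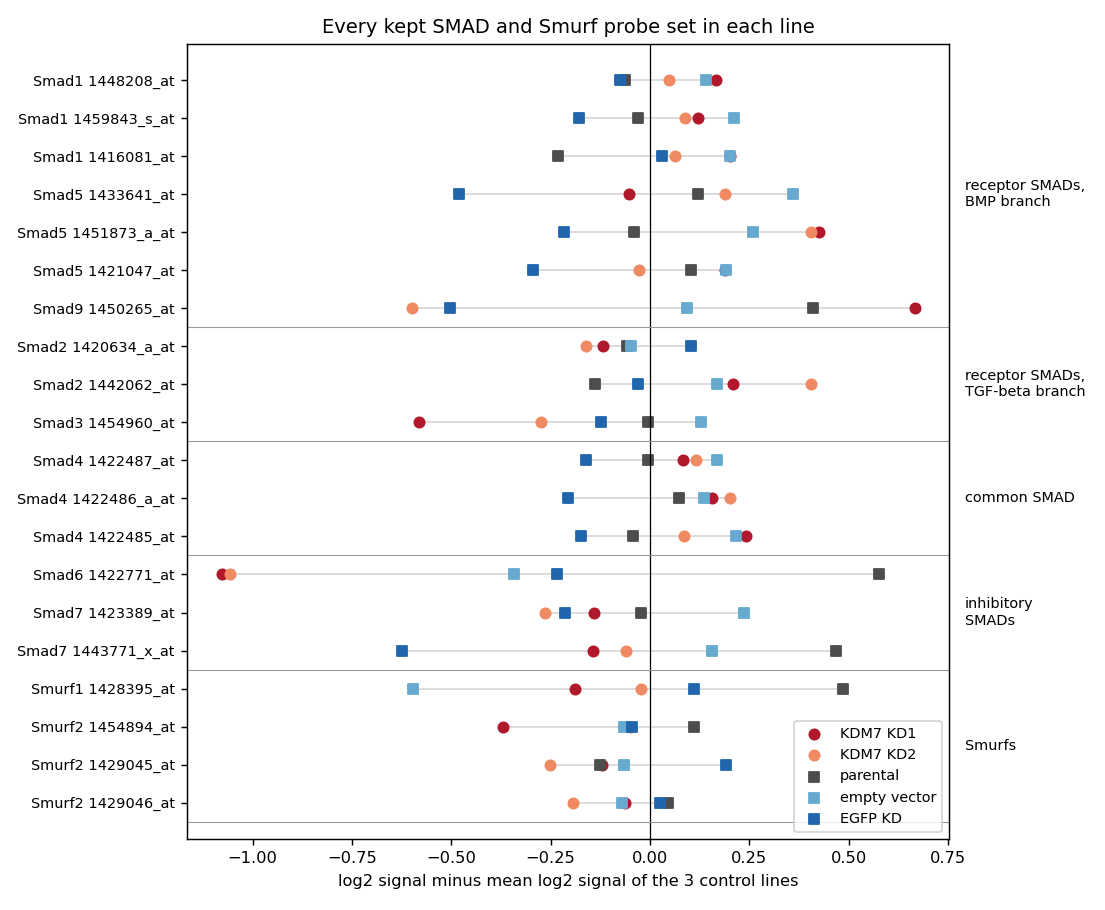
Each row is 1 of the 20 kept probe sets, grouped by role, and the horizontal axis gives the log2 signal of a line minus the mean log2 signal of the 3 control lines. Circles are the knockdown lines and squares the control lines. The circles of Smad6 lie at -1.08 and -1.06 and its parental square far to the right, whereas for most other rows circles and squares mix.

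The members also differed in which control line stood out. EGFP KD was the lowest of the 5 lines for 9 of the 20 kept probe sets, where it was the lowest for 18.7% of all kept probe sets. The 9 were all 3 of Smad4, all 3 of Smad5, 2 of Smad1 and 1 of Smad7. The parental line was the highest for 5 of the 20, against 23.0% of all kept probe sets, namely the Smad6 probe set, 1 of Smad7, that of Smurf1 and 2 of Smurf2. It was the lowest for 2 of the 20, against 31.5% overall. Probe sets of 1 gene share their transcript, so these counts are not independent, and no test was made.

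The knockdown lines were then compared with each other, KDM7 KD2 minus KDM7 KD1, in a model in which the 3 control lines give the spread. Of the 20 member probe sets 0 passed an adjusted p of 0.05 in limma, as for 0% of all 22519, and 0 had an unadjusted p under 0.05, where 567 probe sets (2.52%) did. Smad6 had a log2 difference of 0.02 with a 95% interval of -1.35 to 1.39 (adjusted p = 1 in limma). The point estimate was close to 0, but the interval spans more than 2-fold each way, so this does not show that the lines had the same level. Smad9 had the largest difference, at -1.27 with an interval of -2.56 to 0.03 (adjusted p = 1 in limma), at signals of 34.6 in KDM7 KD2 and 83.2 in KDM7 KD1. Smad3 had 0.30 (interval -0.44 to 1.05) and Smurf2 0.32 (interval -0.40 to 1.04). Differences of the brightest probe sets of the other 6 genes lay between -0.12 and 0.24.

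The parental line was compared with the empty vector and EGFP KD lines, in a model in which the knockdown lines add to the spread. Of the 19 member probe sets other than that of Smad6, 0 passed an adjusted p of 0.05 in limma, as for 0% of all 22519. An unadjusted p under 0.05 was found for 0 of the 19, where 2939 of all probe sets (13.1%) had one. Smad6 had 1123 in the parental line against 594 and 640 in the vector control lines, a log2 difference of 0.86. That order was known when the family was proposed, so no test of it is given. Smurf1 had 0.73 (interval -0.20 to 1.66, adjusted p = 0.456 in limma) and Smad9 0.62 (interval -1.02 to 2.25). Smad7 had -0.03 by 1423389_at (interval -0.72 to 0.65) and 0.70 by 1443771_x_at (interval -0.29 to 1.69), so its probe sets differed here too. Smad1, Smad2, Smad3 and Smad4 had differences between -0.10 and -0.01 by their brightest probe sets.

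**Figure D3:**
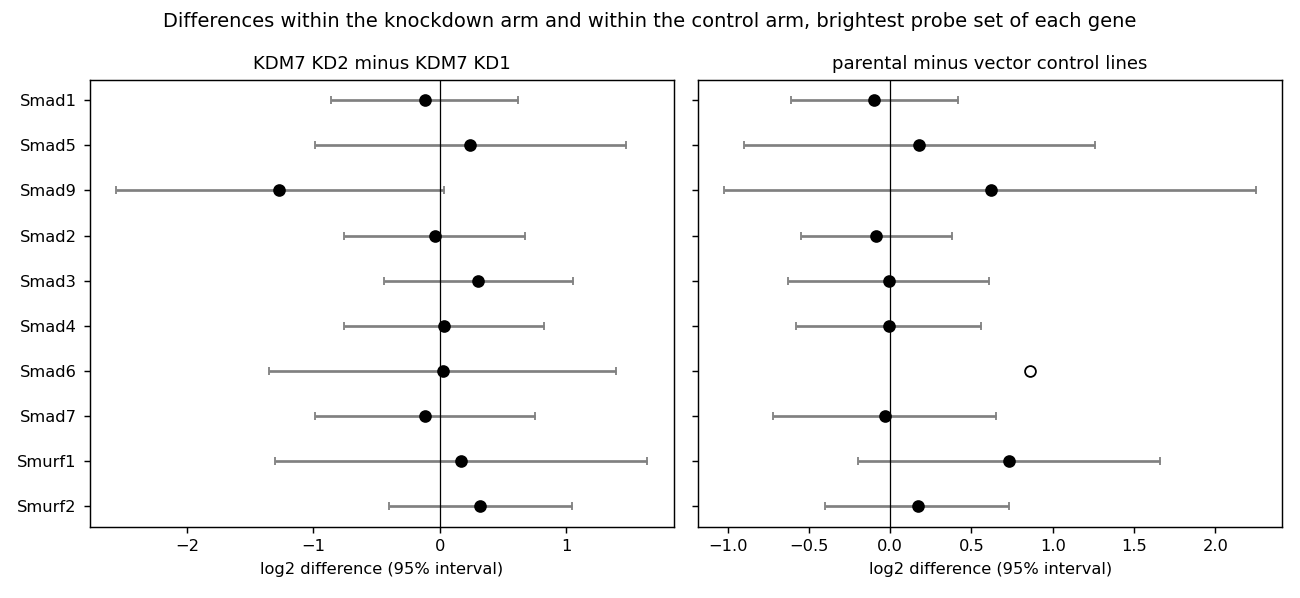
Log2 differences (filled points) with 95% intervals from limma (bars) for the brightest probe set of each gene, KDM7 KD2 minus KDM7 KD1 at the left and the parental line minus the 2 vector control lines at the right. The open point of Smad6 at the right, 0.86, is a description with no interval, and each interval drawn includes 0.

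Other genes of the pathway were taken from a list of 143 annotated genes in 10 roles, of which 95 were kept, each by its brightest probe set. In limma 0 of the 95 passed in either direction in any of the 3 contrasts, as for 0 of all 10867 kept genes. This count is therefore not particular to the list, which was chosen with earlier results of these data known. In the knockdown lines 14 of the 95 lay below every control line and 8 above, where 10.2% and 12.7% of all 10867 kept genes did. The median log2 difference was -0.04 in the list and 0.03 over all kept genes. Of 11 BMP and GDF ligand genes 0 were kept, so the listed ligands of the branch that Smad1, Smad5 and Smad9 serve were all under the brightness filter. Of 9 TGF-beta and activin ligand genes 4 were kept, with 1 below every control line, Tgfb2, and 0 above.

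Receptors were kept for 10 of 12 genes, with 2 below every control line (10.2% of all kept genes), 1 above (12.7%) and a median log2 difference of -0.01. Bmpr1a, a type I BMP receptor, had 2574 and 2450 in KDM7 KD1 and KDM7 KD2, against 1787 (parental), 1934 (empty vector) and 2122 (EGFP KD) in the control lines (log2 difference 0.37, SE 0.15). Tgfbr1, the type I TGF-beta receptor, had 1787 and 1746 in the knockdown lines, against 2737, 1894 and 2201 in the control lines (-0.35, SE 0.20). The groups did not overlap for either gene, and the highest line of Tgfbr1 was the parental one. Bmpr2, the type II BMP receptor, had -0.17 (SE 0.15), and Acvr1 (-0.03, SE 0.22) and Acvr2a (0.01, SE 0.16) overlapped the controls. Tgfbr2, at 25.8 to 58.0 over the lines, was near the brightness filter.

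At the cell surface, Bambi, a pseudoreceptor that blocks signalling and is induced by it, had 688 and 638 in the knockdown lines, against 1505, 723 and 913 in the control lines (log2 difference -0.59, SE 0.33). Without the parental line its log2 difference was -0.29. Eng, an accessory receptor, had 0.29 (SE 0.16). Fst, which encodes the activin antagonist follistatin, had 492 and 444 in the knockdown lines, against 2646, 1484 and 1688 in the control lines by 1434458_at (-2.01, SE 0.28). Of 5 kept co-receptors 1 lay below every control line, Bambi, and 1 above, Eng, and of 3 kept antagonists 2 lay below, Fst and Twsg1, beside the same 10.2% below and 12.7% above of all kept genes.

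The target genes Id1, Id2 and Id3, which encode inhibitors of basic helix-loop-helix factors, shared the order of Smad6 in that both knockdown lines were lowest and the parental line highest. Id1 had 2472 and 2940 in KDM7 KD1 and KDM7 KD2, against 5411 (parental), 3580 (empty vector) and 3900 (EGFP KD) in the control lines. Id2 had 802 and 1036 in the knockdown lines, against 4405, 1995 and 1461 in the control lines. Their log2 differences were -0.65 (SE 0.23) and -1.36 (SE 0.48), and that of Id3 was -1.57 (SE 0.40). Without the parental line they were -0.47, -0.91 and -1.24. Of 15 kept target genes 5 lay below every control line, namely Id1, Id2, Id3, Atoh8 and Fn1, and 1 above, Tgfbi, where 10.2% and 12.7% of all kept genes did, and their median log2 difference was -0.11. The high parental values of the Id genes were also known beforehand.

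Of the named genes that act on SMAD proteins, those kept had differences of at most 0.23 in size. Ski and Skil, co-repressors of SMAD complexes, had log2 differences of -0.09 (SE 0.16) and 0.03 (SE 0.14), and the co-repressor Tgif1 had -0.07 (SE 0.22). Rnf111, a ubiquitin ligase that removes Smad7 and Ski, had -0.05 (SE 0.14), Trim33, a SMAD-binding ligase, -0.04 (SE 0.14), and Ppm1a, a SMAD phosphatase, -0.06 (SE 0.16). Zfyve9, which anchors receptor SMADs at endosomes, had 0.23 (SE 0.16). For all 7 the knockdown lines overlapped the control lines. Nedd4l, a ligase related to the Smurfs, was not kept. By role, 0 lay below and 1 above every control line among 10 kept adaptor and transport genes, 2 and 3 among 16 ligases and deubiquitinases, 0 and 1 among 9 phosphatases and linker kinases, and 1 and 0 among 23 transcriptional partners, beside 10.2% below and 12.7% above among all kept genes.

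The kept probe sets whose profile over the 5 lines was most like that of Smad6 were found by the root mean square difference of log2 signals, each centred on its own mean, among 19891 probe sets of other single genes. The nearest were both probe sets of Nrp1, a receptor for semaphorins and vascular endothelial growth factor, at 0.0863 and 0.0899. Spock2, a proteoglycan, followed at 0.108, Herc1, a HECT-domain protein, at 0.117 and 2610027K06Rik at 0.121. Nrp1 1448943_at had 1123 and 1303 in KDM7 KD1 and KDM7 KD2, against 3456 (parental), 1963 (empty vector) and 1970 (EGFP KD) in the control lines. The other members were farther from Smad6, from 0.470 for Smad3 to 0.717 for Smad9. With 5 lines and many candidates, close profiles are a description only.

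**Figure D4:**
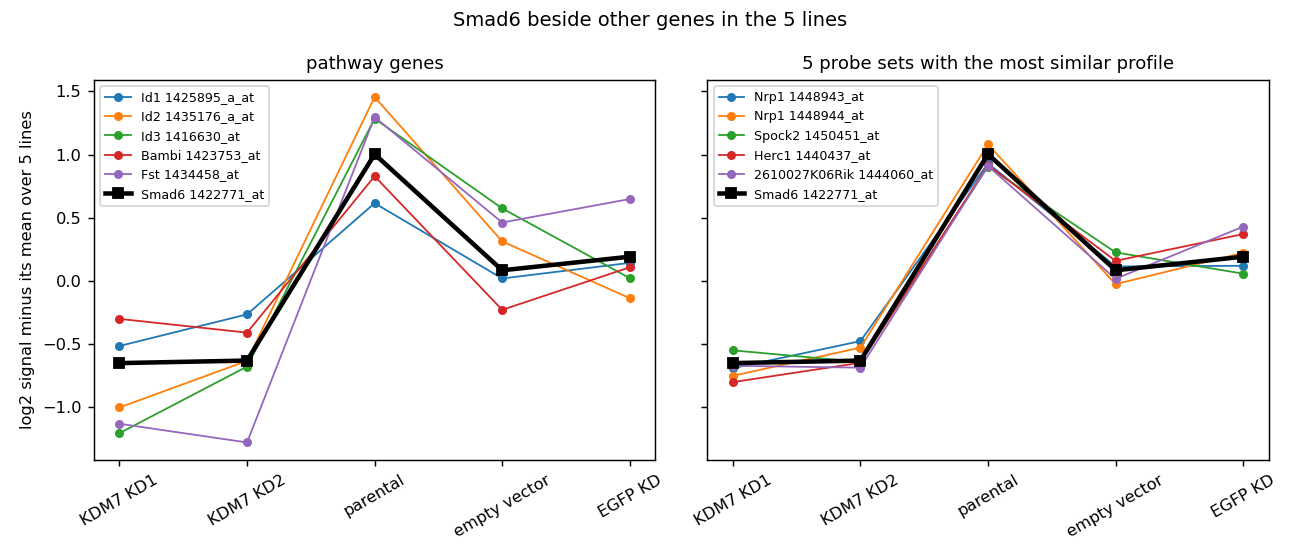
Log2 signal minus its own mean over the 5 lines, for Smad6 (black squares) beside 5 pathway genes at the left and the 5 most similar probe sets at the right, with lines joining the values of 1 probe set as a guide. In both panels Smad6 is low in KDM7 KD1 and KDM7 KD2 and highest in the parental line, and the root mean square differences at the right are 0.0863 to 0.121.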

How the data were processed

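Total RNA of 5 Neuro2A lines was labelled as biotin cRNA and hybridised to 1 array each, per the labels. The deposited values are linear signal intensities from MAS5, per the submitters' processing notes, with no version given. Scaling had been done before deposit, as the 2% trimmed mean was 500.0 for each of the 5 arrays, and none was added. Depth does not apply to arrays.

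Of 45101 probe sets 64 controls were left out. Symbols came from the platform annotation (34945 probe sets with 1 symbol, 932 with several, 9160 with none), and all 10 members had the same symbol by gene number in the GRCm38.p6 gene table. Signals were taken to log2 with no offset. Contrasts were fitted over all 22519 kept probe sets with limma 3.58.1 in R 4.3.3 (lmFit, default eBayes), with Benjamini-Hochberg adjustment at 0.05. Single lines were assumed to vary like the others. The fit was tested on simulated data. The brightest kept probe set stands for a gene. Pathway genes with single values and the likeness rule followed a fixed list. Members and lists were chosen with earlier results of these data known, and so was the default eBayes, which made fewer calls than the trend and robust options. Alternatives were quantile normalization, median centring, no filter, eBayes with trend and robust, an offset of 32, a stricter filter (70th percentile), an adjusted p under 0.10, other probe sets and leaving out each array.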

Additional observations from a re-analysis of the deposited data

How the results depend on the processing

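For knockdown against control, limma called 0 probe sets, and eBayes with trend and robust called 2. For KDM7 KD2 against KD1 the count of 0 became 1 with the stricter filter and 1 with trend and robust. For the parental line against the vector controls it became 2 with an offset of 32 and 35 with trend and robust. Leaving out arrays kept all 3 counts at 0. In the last 2 contrasts 0 member probe sets were called in any fit. The counts of members below and above every control line (3 and 3) stood beside 10.2% and 12.6% of all kept probe sets. They were 6 and 8 without the empty vector line (17.6% and 21.7%), 5 and 3 without EGFP KD (16.6% and 23.5%) and 4 and 3 without the parental line (17.7% and 18.5%). They were 5 and 3 after quantile normalization (11.3% and 11.3%) and 5 and 1 after median centring (17.7% and 6.02%). These settings were added after the data were seen.

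Smad6 ranged from -1.24 to -0.78 for knockdown against control, from 0.02 to 0.08 for KDM7 KD2 against KD1 and from 0.81 to 1.03 for the parental line. Small differences turned sign. For knockdown against control, leaving out 1 line turned 5 of 20 member probe sets: Smad5 (-0.17 to 0.25 by 1433641_at, -0.07 to 0.18 by 1421047_at), Smad9 (-0.60 to 0.67), Smad7 (-0.42 to 0.13 by 1443771_x_at) and Smurf1 (-0.40 to 0.14). It moved Smad7 1423389_at to -0.08 without the empty vector line, Smad3 to -0.27 without KDM7 KD1 and Smurf2 1454894_at to -0.05 without KDM7 KD1. Median centring turned Smad5 (-0.04), Smad9 (-0.08) and Smad4 (-0.01) by their brightest probe sets, and Smad1 became 0.00 in size. For KDM7 KD2 against KD1 these were Smad2 (0.02 after median centring, 0.20 by 1442062_at), Smad5 (-0.02 and -0.21 by its other probe sets), Smad4 (-0.16 by 1422485_at), Smad7 (0.08 by 1443771_x_at) and Smurf2 (-0.13 by both other probe sets). For the parental line, median centring turned Smad1 (0.07), Smad2 (0.08), Smad3 (0.16), Smad4 (0.16) and Smad7 (0.13), and quantile normalization turned Smad3 (0.00). Median centring took the median of all probe sets in that contrast to 0.12, against -0.05 by the deposited scaling. Leaving out 1 line also turned Smad1 (-0.20 to 0.01), Smad3 (-0.13 to 0.12), Smad4 (-0.17 to 0.16), Smad5 (-0.24 to 0.60) and Smad7 (-0.26 to 0.19). Other probe sets turned Smad5 (-0.06), Smad4 (0.11), Smad7 (0.70) and Smurf2 (-0.19). The cause was not tested. No paired analysis was possible because the labels give the lines no shared replicate number.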
